A study of Mus musculus with 12 samples.

Results

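The genes described here are the subunits of the transcription factor NF-kappaB and the proteins that restrain it, measured in cultured mouse thymocytes. Of the 10 genes asked for, 9 had at least 1 probe set with that platform symbol, namely Rela, Relb, Rel, Nfkb2, Nfkbia, Nfkbib, Nfkbie, Bcl3 and Tnfaip3, and Nfkb1 had no probe set listed under its symbol. Together they had 12 probe sets of the 12422 on the array that were not controls, with 2 each for Rela, Relb and Nfkbia. No probe set of a member carried a further symbol.

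The cells were thymocytes of RTOC (reaggregate thymic organ culture, where stromal cells of the thymus and thymocytes form a tissue in the dish), taken at day 6 and measured as total RNA on 12 Affymetrix arrays. The group OT1 carried the OT1 T cell receptor, which sees an ovalbumin peptide on MHC class I, and no added peptide is named in its labels. The groups HY_low and HY_high carried the HY receptor, which sees a peptide of a male antigen on MHC class I, and had Smcy peptide at 1e-07 M and 1e-05 M. Each group had 4 arrays numbered 1 to 4 in the titles, and the labels do not give the strain, age, sorting or purity of the cells, nor whether each array had its own culture. The p-values therefore cover array-to-array spread alone, which may be technical. HY_high and HY_low differ in peptide dose and also in an unexplained letter code of their titles, and both differ from OT1 in receptor and peptide together.

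NF-kappaB proteins bind DNA as dimers of Rela, Relb, Rel and the processed products of Nfkb1 and Nfkb2. In resting cells inhibitors of the IkappaB family hold the dimers in the cytoplasm. Receptor signals, including those of the T cell receptor, activate the IkappaB kinase, which marks the inhibitors for destruction. Several inhibitors, and some of the subunits, are themselves target genes of the pathway, which closes feedback loops. In the thymus the pathway is known for its part in the survival and selection of thymocytes.

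Promoters are shown because the members differ in whether a kappaB motif lies near the start site. RefSeq sequences (GRCm38.p6) from 250 bases before to 50 bases after a start site were held for 8 of the 10 genes, with 11 windows in all, and Relb and Nfkb1 had no entry. The kappaB consensus was searched on both strands. It is 10 bases long, GGG followed by a purine, any pair of bases, a pair of pyrimidines and CC, and can match itself on the other strand or overlap its neighbour. It matched in 6 of the 8 genes (Nfkbia, Nfkbie, Nfkb2, Bcl3, Rel and Tnfaip3) and in neither window of Nfkbib and Rela. Counted by window, 8 of the 11 held a match, where 8.46% of all 32851 promoter windows of that source did. Nfkb2 gave 3 of the matching windows, and its later ones overlap and share a match, so the windows are not independent. Capitals mark the matches in the following windows, each given 5′ to 3′ on the strand of the gene.
Nfkbia, chr12:55492598-55492897, minus strand: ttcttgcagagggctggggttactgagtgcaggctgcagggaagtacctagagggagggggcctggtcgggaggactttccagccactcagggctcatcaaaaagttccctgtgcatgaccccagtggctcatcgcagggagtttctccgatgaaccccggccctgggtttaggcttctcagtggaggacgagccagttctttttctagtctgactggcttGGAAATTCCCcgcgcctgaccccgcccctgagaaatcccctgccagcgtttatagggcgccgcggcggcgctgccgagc
Nfkbie, chr17:45555450-45555749, plus strand: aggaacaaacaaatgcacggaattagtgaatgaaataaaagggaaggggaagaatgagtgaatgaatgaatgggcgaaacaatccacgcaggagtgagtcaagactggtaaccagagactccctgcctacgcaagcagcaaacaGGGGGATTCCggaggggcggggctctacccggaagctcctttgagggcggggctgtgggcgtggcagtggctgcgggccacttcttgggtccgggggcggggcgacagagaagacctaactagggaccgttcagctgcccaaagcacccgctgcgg
Nfkb2, chr19:46304487-46304786, plus strand, the first of 3 windows: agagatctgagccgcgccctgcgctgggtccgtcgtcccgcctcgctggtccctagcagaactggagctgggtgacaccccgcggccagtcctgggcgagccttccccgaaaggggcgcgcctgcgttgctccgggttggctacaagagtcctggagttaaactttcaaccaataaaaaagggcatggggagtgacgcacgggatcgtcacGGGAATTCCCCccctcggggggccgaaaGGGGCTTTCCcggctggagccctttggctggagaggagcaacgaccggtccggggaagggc
Bcl3, chr7:19822706-19823005, minus strand: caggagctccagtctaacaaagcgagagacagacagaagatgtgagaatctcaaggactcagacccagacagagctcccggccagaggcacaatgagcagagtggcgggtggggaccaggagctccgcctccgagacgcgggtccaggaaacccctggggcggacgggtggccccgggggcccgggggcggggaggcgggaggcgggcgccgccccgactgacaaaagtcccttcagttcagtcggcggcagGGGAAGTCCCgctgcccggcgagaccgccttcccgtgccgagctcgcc
Nfkbib, chr7:28766595-28766894, minus strand: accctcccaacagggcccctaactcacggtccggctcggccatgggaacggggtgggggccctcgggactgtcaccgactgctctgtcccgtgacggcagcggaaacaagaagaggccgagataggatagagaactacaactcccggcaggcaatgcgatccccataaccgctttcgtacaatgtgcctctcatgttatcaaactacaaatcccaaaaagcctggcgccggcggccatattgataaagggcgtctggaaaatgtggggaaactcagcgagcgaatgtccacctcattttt
The match of Nfkbia began at base -29 from the start site, that of Nfkbie at base -106 and that of Bcl3 at base 3 of the transcript. Nfkb2 had matches that began at bases -39, -38 and -11, the first 2 overlapping. A match is a description of the letters and does not show that a factor binds there, and a window without one says only that these letters are not in it.

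Intensities are on a linear scale as deposited, with 1 as the lowest value, which 15.3% of all values took. The median per array lay between 3.33 and 3.97. Testing was limited to probe sets brighter, by mean log2 intensity, than the dimmest 30%, a limit of 1.76 in intensity, which kept 8695 probe sets and 9 of the 12 of the members, from 7 genes. The T cell identity of the samples was checked with 9 lineage genes, and 0 of the 9 stayed at or below 8 on all arrays. Their summed intensity stood at 1771 to 2958 in OT1, at 1615 to 3435 in HY_low and at 732 to 1341 in HY_high, the last group lying below both others. Cd8b1 carried most of that gap, with geometric means of 693, 644 and 4.52 in the same order, and Thy1, Cd8a and Cd2 were also lowest in HY_high (234, 157 and 95.5, against 541, 340 and 197 in OT1). Cd5 was lowest there too, at 36.1, against 50.4 in OT1 and 61.1 in HY_low. The receptor chains Cd3e, Cd3d and Cd3g lay between, higher in HY_high than in OT1 and lower than in HY_low. They had 41.5, 87.3 and 184 in OT1, 57.2, 101 and 273 in HY_low, and 48.0, 98.3 and 231 in HY_high.

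**Figure D1:**
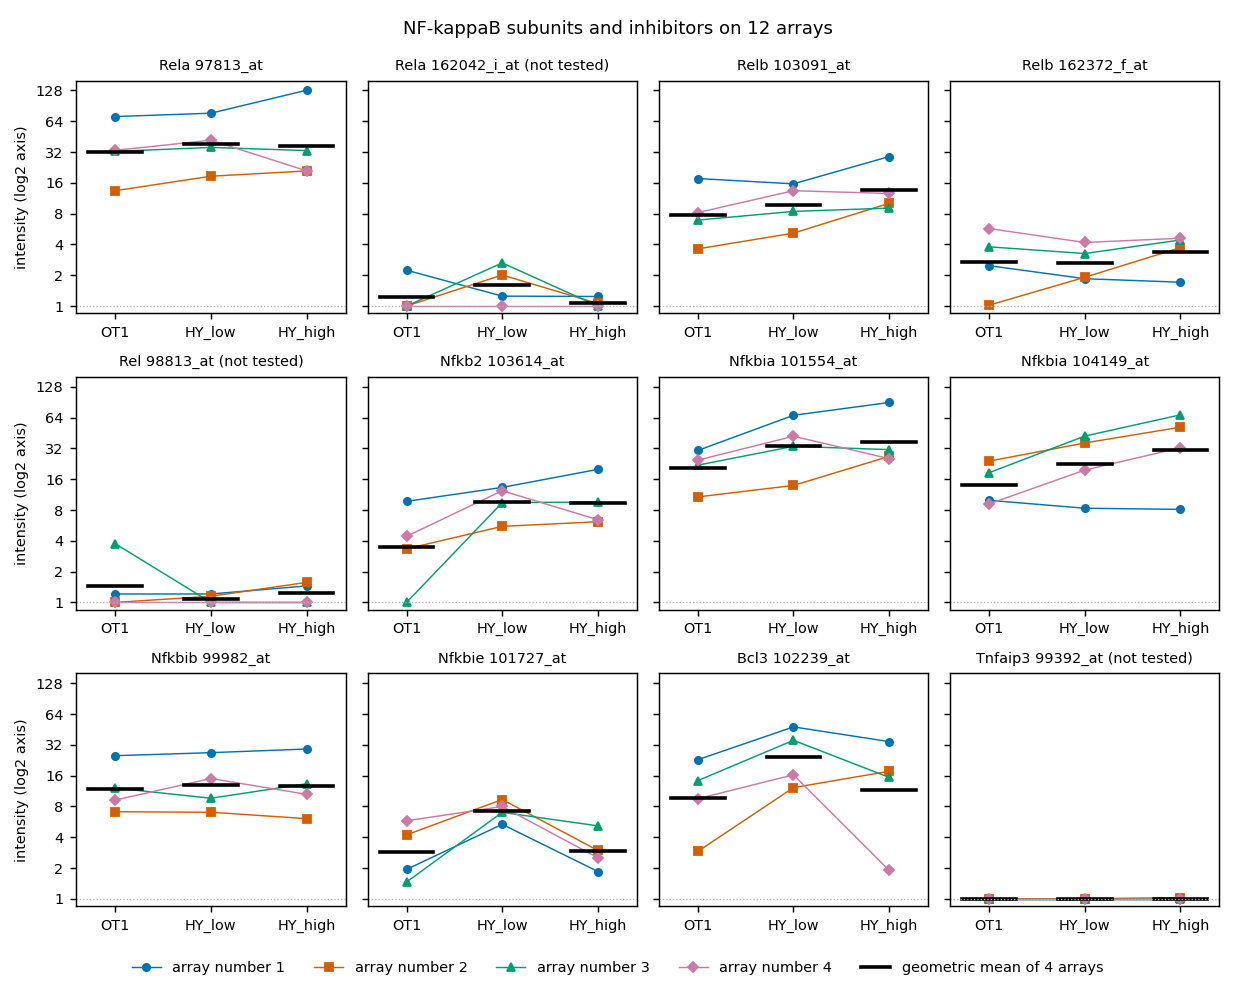
Intensity of each of the 12 probe sets on a log2 axis in the 3 groups, with points for the 4 arrays of a group, lines joining arrays of the same number and black bars for the geometric mean of a group. The 3 probe sets marked as not tested lie at or near 1, and Rela, Nfkbib and Nfkbia (101554_at) are highest on the arrays numbered 1 in all 3 groups.

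None of the 9 tested probe sets differed between any pair of groups at a limma adjusted p of 0.05. In HY_low against OT1, 0 of 9 passed, where 0.0230% of all probe sets did, and an unadjusted p under 0.05 was found for 2 of 9 against 2.65% of all. In HY_high against OT1, 0 of 9 passed against 0.173% of all, with 1 of 9 against 4.08% at the unadjusted threshold. In HY_high against HY_low, 0 of 9 passed against 0.0230% of all, with 1 of 9 against 2.96%. Arrays of the same number were alike across the groups, and a fit with the replicate number as a block called 0 of 9 members in each comparison too, with lowest adjusted p of 0.358, 0.116 and 0.304 in the same order, where it called 0.0920%, 1.36% and 0.345% of all probe sets. In that fit an unadjusted p under 0.05 was found for 4 of 9 in HY_low against OT1 (8.37% of all), 4 of 9 in HY_high against OT1 (11.7%) and 1 of 9 in HY_high against HY_low (11.1%). Below, an interval is the 95% interval of a log2 difference in the fit without the block, and every limma adjusted p of a member in that fit rounded to 1.

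Most members had higher geometric means in HY cells than in OT1 cells, by differences that did not pass. The log2 difference of HY_low from OT1 was above 0 for 8 of 9 probe sets, where 51.0% of all were, and its median was 0.65 over the members and 0.01 over all probe sets. This count leaned on OT1 array 2. Without that array the difference was below 0 for Rela (-0.16), Nfkbib (-0.14) and both Relb probe sets (-0.03 and -0.52), and above 0 for the rest. For HY_high from OT1 the log2 difference was above 0 for 9 of 9, or 8 of 9 with quantile normalization or with arrays scaled to one median, where Nfkbie turned to -0.04 and -0.02, against 51.4% of all, with medians of 0.31 and 0.02. This count also depended on which arrays were used. With arrays left out, the lowest differences were -0.39 for Rela, -0.33 for Nfkbib and -0.54 for Bcl3. They were -0.59 for Nfkbie and -0.21 for Relb 162372_f_at. The lowest stayed above 0 for Nfkb2 (0.82), Relb 103091_at (0.43) and both Nfkbia probe sets (0.43 and 0.75). Both comparisons with OT1 use the same OT1 arrays. For HY_high from HY_low the log2 difference was above 0 for 4 of 9 (51.3% of all), with medians of -0.03 and 0.01. The HY_low value exceeded the OT1 value within all 4 array numbers for 5 of 9 probe sets, those of Rela, Nfkb2, Nfkbie and Bcl3 and 1 of Nfkbia, where 9.73% of all probe sets did so. HY_high exceeded OT1 within all 4 numbers for 3 of 9 (10.4% of all), 1 each of Nfkb2, Nfkbia and Relb. HY_high was higher than HY_low within all 4 numbers for 0 of 9 (9.81% of all) and lower for 1 of 9, Nfkbie (9.76% of all). The arrays of 2 groups did not overlap for 0 of 9 in either comparison with OT1, where 1.63% of all probe sets for HY_low and 2.53% for HY_high did not. In bulk RNA fewer cells of a type and less RNA per cell cannot be told apart.

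**Figure D2:**
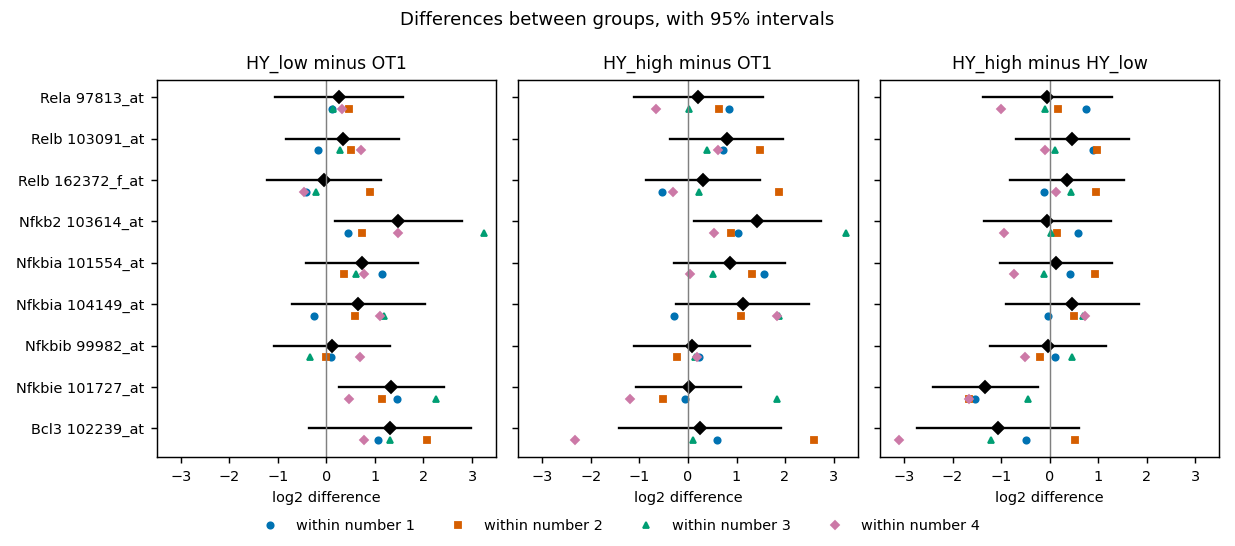
Log2 difference between groups for the 9 tested probe sets in the 3 comparisons, with black diamonds and lines for the estimate and its 95% interval and coloured points for the difference within each array number. The interval excludes 0 for Nfkb2 in both comparisons with OT1 and for Nfkbie in HY_low minus OT1 and HY_high minus HY_low, before adjustment over 8695 probe sets.

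Rela, the subunit with the strongest activation domain in the classical dimer, was the brightest member. On arrays 1 to 4 its brighter probe set (97813_at) read 71.1, 13.4, 32.5 and 33.3 in OT1. In HY_low it read 76.7, 18.6, 35.5 and 41.7, and in HY_high 129, 20.9, 33.1 and 21.0. The 3 groups overlapped almost completely, and in each of them array 1 was the highest and array 2 the lowest. Geometric means were 31.9, 38.1 and 37.0 in OT1, HY_low and HY_high. The log2 difference was 0.26 ± 0.63 SE for HY_low from OT1 (interval -1.07 to 1.59), 0.21 for HY_high from OT1 (-1.11 to 1.54) and -0.04 for HY_high from HY_low (-1.37 to 1.28, n = 4 per group). With the replicate block the intervals narrowed to -0.32 to 0.84, -0.37 to 0.80 and -0.63 to 0.54. The other Rela probe set (162042_i_at) stood at 1 on 6 arrays, reached 2.64 at most and was not tested.

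Relb, the subunit that pairs with the Nfkb2 product in the alternative pathway, was dimmer. Its probe set 103091_at read 17.6, 3.62, 6.92 and 8.19 on OT1 arrays 1 to 4. The HY_low arrays read 15.6, 5.16, 8.41 and 13.4, and the HY_high arrays 28.9, 10.1, 9.06 and 12.6. HY_high lay above OT1 within each number, although the groups overlapped, array 1 being the highest of each. The log2 difference of HY_high from OT1 was 0.80 ± 0.55 (interval -0.37 to 1.97, block adjusted p = 0.322 by limma). HY_low from OT1 had 0.33 and HY_high from HY_low 0.47. The second Relb probe set (162372_f_at, of a type that can read similar sequences) lay between 1.02 and 5.72, with log2 differences of -0.05, 0.31 and 0.36 for HY_low from OT1, HY_high from OT1 and HY_high from HY_low. The probe sets therefore gave opposite signs for HY_low against OT1, and both values were small beside their SE of 0.55.

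Nfkb2 encodes p100, which acts as an inhibitor until it is processed to the DNA-binding p52. It read 9.73, 3.34, 1 and 4.43 on OT1 arrays 1 to 4, 13.3, 5.54, 9.45 and 12.4 in HY_low, and 19.97, 6.15, 9.59 and 6.43 in HY_high. Both HY groups were higher than OT1 within every number, and their ranges overlapped with it only through OT1 array 1. The geometric mean stood at 3.46 in OT1, at 9.63 in HY_low and at 9.33 in HY_high. The log2 difference from OT1 was 1.48 ± 0.62 for HY_low (interval 0.17 to 2.78, limma adjusted p with the block = 0.358) and 1.43 for HY_high (0.12 to 2.74, limma adjusted p with the block = 0.173). OT1 array 3, at the lowest value of the table, carried much of this, since without it the differences were 0.88 and 0.83. With intensities under 8 set to 8 they were 0.33 and 0.32. Between the HY groups the difference was -0.05 (interval -1.36 to 1.26).

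Rel, the subunit named c-Rel, stood at 1 on 6 arrays. Its highest value was 3.75 on OT1 array 3, and it was not tested.

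Nfkbia encodes IkappaBα, the inhibitor that is degraded first and resynthesised after activation. Its probe set 101554_at read 30.6, 10.8, 22.0 and 24.6 on OT1 arrays 1 to 4. The values were 67.5, 13.9, 33.6 and 42.1 in HY_low and 90.0, 26.8, 31.2 and 25.4 in HY_high. Each HY value was above the OT1 value of its number, by as little as 0.05 on the log2 scale for HY_high within number 4. The log2 difference from OT1 was 0.73 ± 0.55 for HY_low (interval -0.43 to 1.88) and 0.86 for HY_high (-0.30 to 2.01, block adjusted p = 0.197 by limma). Between HY_high and HY_low it was 0.13 (-1.02 to 1.28).

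The other Nfkbia probe set (104149_at) gave similar group differences with another pattern over the arrays. It read 9.96, 24.0, 18.5 and 9.18 in OT1, 8.33, 36.2, 42.3 and 19.7 in HY_low, and 8.12, 51.6, 68.1 and 32.5 in HY_high. Within numbers 2, 3 and 4 the order was OT1, HY_low, HY_high from lowest to highest, and within number 1 it was the opposite. The log2 difference was 0.65 ± 0.65 for HY_low from OT1 and 1.13 for HY_high from OT1 (interval -0.24 to 2.50), where its block adjusted p of 0.116 by limma was the lowest of any member. Without HY_high array 1 the latter was 1.77, and HY_high from HY_low went from 0.47 to 1.12. Averaged over both probe sets, Nfkbia had 0.69 for HY_low from OT1, 0.99 for HY_high from OT1 and 0.30 for HY_high from HY_low (limma adjusted p = 0.92 for HY_high from OT1).

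The log2 ratio of 101554_at to 104149_at ran from -1.38 on HY_low array 2 to 3.47 on HY_high array 1. It was 1.62, 3.02 and 3.47 on the arrays numbered 1 and -1.16, -1.38 and -0.95 on those numbered 2. The readings of this 1 gene thus differed more between array numbers than between groups. The Pearson correlation of the log2 values of the 2 probe sets over the 12 arrays was -0.46, or 0.33 after the means of the array numbers were removed.

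**Figure D3:**
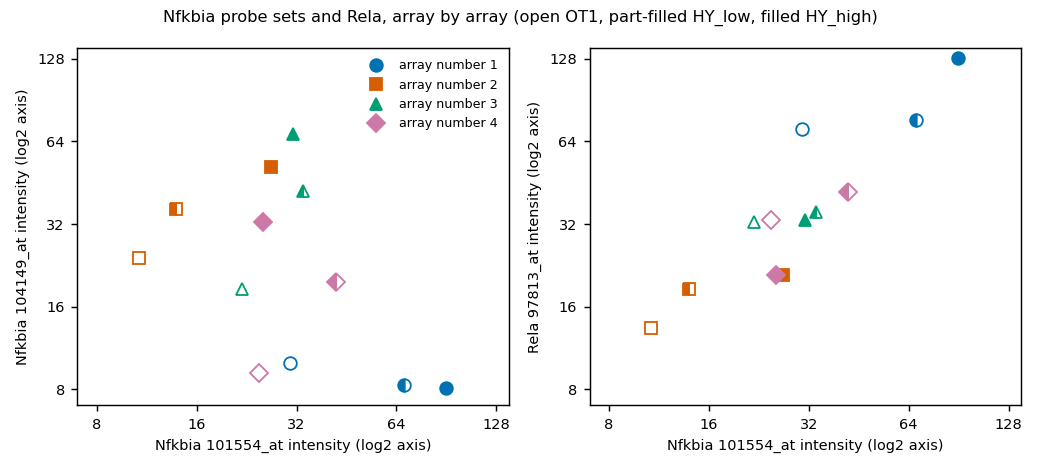
Intensity of Nfkbia probe set 101554_at against Nfkbia probe set 104149_at (left) and against Rela 97813_at (right), on log2 axes, 1 point per array, with symbols for array numbers and filling for groups. The arrays numbered 1 lie at the lower right on the left side, where 104149_at reads 8.12 to 9.96, and at the upper right on the right side, where Rela reads 71.1 to 129.

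Nfkbib encodes IkappaBβ, an inhibitor with slower turnover. It read 25.1, 7.10, 12.1 and 9.24 on OT1 arrays 1 to 4, 26.8, 7.02, 9.62 and 15.0 in HY_low, and 29.1, 6.08, 13.3 and 10.5 in HY_high. The groups were nearly superimposed, with geometric means of 11.9, 12.8 and 12.6. Log2 differences were 0.11 for HY_low from OT1, 0.08 for HY_high from OT1 and -0.03 for HY_high from HY_low, each with an SE of 0.57. In the fit with the replicate block the intervals narrowed to -0.51 to 0.74, -0.55 to 0.70 and -0.66 to 0.59, so changes beyond 0.74 on the log2 scale lay outside them.

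Nfkbie encodes IkappaBε, a further inhibitor, and was the only member whose groups separated in the dose comparison. It read 1.94, 4.22, 1.46 and 5.79 on OT1 arrays 1 to 4. The HY_low arrays read 5.35, 9.35, 7 and 7.99, and the HY_high arrays 1.85, 2.97, 5.17 and 2.52. All HY_low arrays were above all HY_high arrays, a separation that 1 of 9 member probe sets and 2.02% of all probe sets showed. HY_low also exceeded OT1 within each number, with an overlap between OT1 array 4 and HY_low array 1. The geometric mean stood at 2.88 in OT1, at 7.27 in HY_low and at 2.91 in HY_high. The log2 difference of HY_high from HY_low was -1.32 ± 0.51 (interval -2.40 to -0.24, limma adjusted p with the block = 0.304), and that of HY_low from OT1 was 1.33 (0.25 to 2.42, limma adjusted p with the block = 0.396). HY_high and OT1 had nearly the same mean (0.01, interval -1.07 to 1.09). Values were dim, above 8 on 1 array, and with intensities under 8 set to 8 the differences shrank to -0.06 and 0.06.

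Bcl3, an atypical IkappaB protein that acts in the nucleus with p50 and p52, read 22.9, 2.91, 14.3 and 9.51 on OT1 arrays 1 to 4. In HY_low it read 47.9, 12.2, 35.4 and 16.3. The HY_high arrays read 34.4, 17.7, 15.4 and 1.90, the last being the lowest of the 12 arrays but short of the outlier limit used below. HY_low exceeded OT1 within every number, and the log2 difference was 1.31 ± 0.79 (interval -0.37 to 2.98, block adjusted p = 0.485 by limma). HY_high from HY_low had -1.06 (interval -2.74 to 0.61), which was -0.20 without HY_high array 4. HY_high from OT1 had 0.24, or 1.11 without that array.

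Tnfaip3 encodes A20, an enzyme that edits ubiquitin chains and ends signalling to NF-kappaB. Its probe set stood at 1 on 11 of the 12 arrays and at 1.03 on HY_high array 2, so nothing can be said of its differences.

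By brightness the tested probe sets fell from Rela and Nfkbia (median intensity of 33.2 and 28.7 over the 12 arrays) to Nfkbie (4.70) and the dimmer Relb probe set (3.49). Probe sets differ in how well they bind, so this order is one of signals and not of transcript levels.

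Array number accounted for more of the spread of most members than group did. For Nfkbib 93.5% of the variance of log2 intensity lay between numbers and 0.40% between groups, and for Rela 88.0% and 1.57%. Over all tested probe sets the medians were 52.8% and 10.7%. Nfkbie (17.3% and 53.4%) and Nfkb2 (34.8% and 40.1%) were the 2 members with a larger share between groups. The brighter probe sets of Rela, Nfkbia, Nfkbib, Relb, Nfkb2 and Bcl3 were each highest on array 1 in all 3 groups. Arrays numbered 1 had geometric means of 88.8 for Rela and 27.0 for Nfkbib, where those numbered 2 had 17.3 and 6.72.

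**Figure D4:**
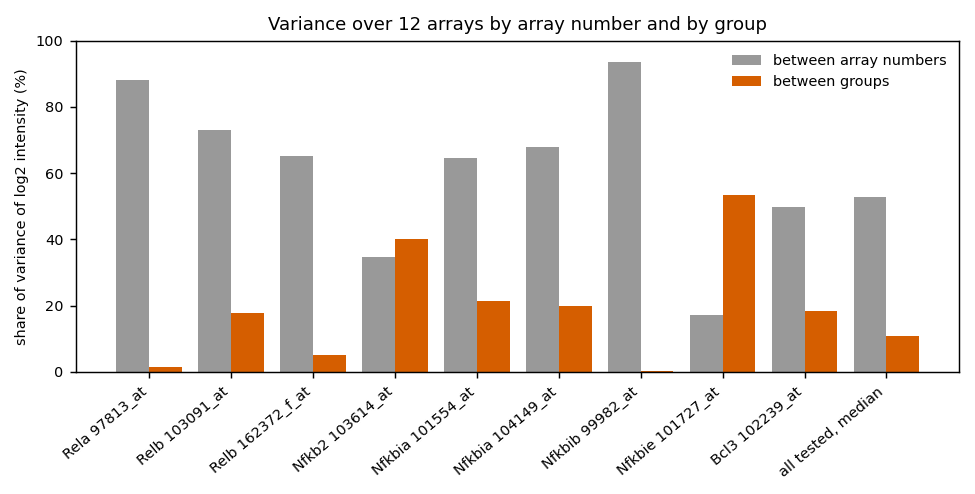
Share in percent of the variance of log2 intensity over the 12 arrays that lies between array numbers (grey bars) and between groups (orange bars) for the 9 tested probe sets, with the median over all 8695 tested probe sets at the right. Nfkbib reaches 93.5% between numbers, and Nfkbie, with 53.4%, has the largest share between groups among the members.

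What the numbers stand for is not stated in the labels. Some other measures differed between them. The Gapdh control probe sets for the 3′ and 5′ ends had a log2 ratio (3′ over 5′) of 5.60 to 6.26 on arrays numbered 2, where Rela and Nfkbib were lowest in all 3 groups, 4.57 to 4.87 on those numbered 1, 4.69 to 5.48 on those numbered 3 and 2.95 to 3.27 on those numbered 4. The same ratio for beta-actin did not follow this order, with 2.59 to 3.601, 2.02 to 2.99, 2.74 to 3.39 and 2.15 to 2.54 on numbers 1 to 4. Ighm, a B cell marker, read 59.4 to 987 over all arrays and was highest on array 1 in each group (987, 593 and 461 in OT1, HY_low and HY_high). Other B cell genes were not compared between numbers. The part of RNA quality or of B cells in the members' values was not tested.

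Markers of other cells were dim apart from a few genes such as Ighm, Ctss, Cd79b (3.86 to 42.9) and Col1a2 (14.4 to 37.0). Blk had a median of 5.42 over the 12 arrays and a highest value of 153. Of 14 macrophage and dendritic cell genes 9 stayed at or below 8 on all arrays, and their summed intensity stood at 113 to 319 in OT1, at 138 to 615 in HY_low and at 135 to 565 in HY_high. The same held for 7 of 8 thymic epithelial genes (sums of 14.0 to 20.1, 17.8 to 26.9 and 17.6 to 32.9), 3 of 3 NK cell genes (5.28 to 9.24, 5.19 to 11.9 and 5.88 to 13.4), 3 of 8 mesenchymal genes (47.8 to 70.7, 46.6 to 82.8 and 40.8 to 67.2) and 1 of 2 erythroid genes (4.89 to 12.6, 4.48 to 17.6 and 5.54 to 14.2). For B cells it held for 2 of 7 genes, with sums of 92.2 to 1012, 82.8 to 636 and 160 to 534. The B cell genes differed in direction. Ighm had geometric means of 244, 216 and 200 in OT1, HY_low and HY_high. Cd79b (11.4, 12.9 and 22.3), Blk (5.09, 4.17 and 14.6), Ms4a1, Pax5 and Cd22 were highest in HY_high, and Cd79a in HY_low. Most of the macrophage and dendritic cell sum was Ctss, a lysosomal protease, which read 81.2 to 583 and had geometric means of 148, 234 and 296 in OT1, HY_low and HY_high, the same order of means as for Nfkbia. Lyz2 (1.16, 4.57 and 1.97) and Apoe (1.27, 5.61 and 1.40) had their highest means in HY_low, as did Csf1r, Adgre1 and Fcgr1. Lyz2 and Apoe were dim, with medians of 1.79 and 1.45 over the 12 arrays. The list did not move together. Its genes C1qa, C1qb, Itgam, Cd68 and Fcgr3 were highest in HY_high, and C1qc, Itgax and Mpeg1 in OT1. Among the members Rela, Nfkb2, Nfkbib, Nfkbie and Bcl3 had their highest means in HY_low. The defining macrophage gene Adgre1 read 1 to 3.11 and the epithelial Epcam 1 to 3.31. The part of such cells in the members' differences was not tested.

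The pathway around the members was described with 6 lists of 114 genes in all, of which 79 had a tested probe set. Of these 79, limma called 0 in each comparison, and an unadjusted p under 0.05 was found for 2 in HY_low against OT1 (2.65% of all probe sets), 11 in HY_high against OT1 (4.08%) and 6 in HY_high against HY_low (2.96%). With the replicate block it called 3 in HY_high against OT1, all higher, where the block called 1.13% of all probe sets as higher, and 0 in the other comparisons. Usp18, an isopeptidase best known as an interferon-induced gene, read 65.3, 3.05, 11.4 and 3.40 in OT1 and 123, 81.8, 137 and 48.8 in HY_high, overlapping only through OT1 array 1 (log2 difference 3.27 ± 0.77, limma adjusted p = 0.187, block adjusted p = 0.00145). Tnfrsf1b, a receptor for TNF, read 21.2, 5.27, 14.6 and 18.7 in OT1 and 80.9, 18.7, 29.7 and 29.98 in HY_high (1.36 ± 0.53, limma adjusted p = 0.942, block adjusted p = 0.0265). Tnfsf11, the ligand RANKL, read 2.21, 7.49, 4.59 and 3.47 in OT1 and 9.04, 10.6, 24.2 and 19.4 in HY_high (1.85 ± 0.49, limma adjusted p = 0.304, block adjusted p = 0.0342). All 3 were higher in HY_high within every number, as 10.4% of all probe sets were, and for Tnfsf11 the groups did not overlap, as for 2.53% of all.

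Textbook NF-kappaB target genes, with 29 of 40 tested, had median log2 differences of 0.45 for HY_low from OT1, 0.54 for HY_high from OT1 and 0.29 for HY_high from HY_low, where the medians over all probe sets were 0.01, 0.02 and 0.01. Differences were above 0 for 24, 22 and 19 of the 29, where 51.0%, 51.4% and 51.3% of all probe sets were. In either fit 0 of the 29 passed in any comparison. The smallest p in HY_high against OT1 belonged to Cd83, an activation marker (1.96, limma adjusted p = 0.221), and the chemokines Ccl5 (2.94, 0.805) and Ccl3 (1.73, 0.850). Ccl5 read 160, 5.19, 289 and 65.1 in OT1 and 612, 713, 441 and 280 in HY_high, while Cd83 stayed at or below 7.05 on all arrays and Ccl3 at or below 2.76 in OT1. In HY_high against HY_low they belonged to Ccr7, a homing receptor that was lower (-1.41), Ccl5 (2.998) and Cd83 (1.28, limma adjusted p of 1 for the 3, rounded), and in HY_low against OT1 to Sod2 (-0.92), Ccl3 (1.17) and Tap1 (0.57, likewise 1).

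Upstream kinases and adaptors, with 17 of 25 tested, had medians of 0.19, 0.27 and 0.05 for HY_low from OT1, HY_high from OT1 and HY_high from HY_low. Traf5 and Traf2, adaptors of TNF receptors, and Tab2, an adaptor of the kinase Map3k7, had 0.69, 1.01 and 0.73 for HY_high from OT1. Tab2, Traf5 and the kinase Prkcq had 0.88, 0.51 and -0.54 for HY_high from HY_low, and Traf2, Ikbkg, the regulatory part of the IkappaB kinase, and Map3k7 had 0.96, 0.68 and 0.45 for HY_low from OT1. None of these passed. In OT1, array 2 was the lowest for Traf2, Ikbkg and Map3k7, at 1.77, 3.08 and 1.13. The other OT1 arrays read 8.80 to 19.4, 5.65 to 13.1 and 3.83 to 5.34. The differences of Traf2, Ikbkg and Map3k7 from OT1 therefore leaned on that array. Map3k7 was dim, at or below 6.30 on all arrays. Other negative regulators (12 of 14 tested) had medians of 0.26, 0.44 and 0.33, with Birc3, a ubiquitin ligase, at 0.996 and Otud7b at -0.72 for HY_low from OT1, beside Usp18 at 2.45 (block adjusted p = 0.0579 by limma). For HY_high from HY_low Otud7b, Birc2 and Usp18 had 0.71, 0.98 and 0.82.

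Receptors (11 of 16 tested) had medians of 0.39, 0.25 and -0.29 in the same order. Tnfrsf18, the receptor GITR, read 124, 56.4, 45.1 and 45.1 in HY_low and 170, 145, 85.7 and 97.1 in HY_high, higher within every number (0.96, block adjusted p = 0.0726 by limma), while Tnfrsf11a, the receptor of RANKL, and Tnfrsf9 had -1.27 and 1.19. Both of the latter were dim. Tnfrsf11a read at most 5.34, and Tnfrsf9 at most 5.93 apart from 19.58 on HY_high array 1. For HY_low from OT1 Tnfrsf1b, Tnfrsf11a and Tnfrsf4 had 0.74, 0.76 and 0.75. Tnfrsf4 was dim too, with geometric means of 1.71 in OT1 and 2.88 in HY_low. Ligands (7 of 14 tested) had medians of 0.28, 0.56 and 0.08. Tnfsf11, Tnfsf9 and Tnfsf8 had 1.06, 0.84 and 0.68 for HY_high from HY_low, and Tnfsf11, Tnfsf8 and Lta 0.80, 0.60 and 0.53 for HY_low from OT1. Tnfsf9 was dim, at or below 5.4 on all arrays, and Tnfsf8 read at most 9.05. Atypical IkappaB and related proteins were tested for 3 of 5 genes and had medians of -0.09, -0.14 and -0.13. Nfkbiz, a nuclear IkappaB protein, had -0.44, 0.29 and 0.73, Nkiras1 0.27, -0.14 and -0.41, and Nkiras2 -0.09, -0.21 and -0.13. Nkiras2 was dim, at or below 7.62 on all arrays.

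Genes whose log2 values ran most like those of the 3 brightest members over the 12 arrays were found by Pearson correlation, as a description only, since arrays of a number share that number's level. For Rela they were Lrwd1 (0.98), Gnai2 (0.97) and Tmem234 (0.97), with 0.87, 0.75 and 0.71 after the means of the numbers were removed. For Nfkbia (101554_at) they were Vamp8 (0.95), Lst1 (0.95) and Wdr81 (0.93), with 0.93, 0.91 and 0.92 after that step. For Bcl3 they were Zfp740, Ttc17 and Kmt2a (0.88 each), with 0.79, 0.83 and 0.80. Among the members themselves Rela ran with Nfkbib (0.93), Nfkbia 101554_at (0.90) and Relb (0.87), which became 0.29, 0.73 and 0.56 without the means of the numbers.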

How the data were processed

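The intensities were used as deposited by the authors in 1 table of 12488 probe sets on 12 arrays; their background correction, summary and scaling are not given in the sources used here. Control probe sets (66) were left out, and the rest were put on a log2 scale. Probe sets were named by the platform annotation (10833 with 1 gene, 396 with several, 1193 with none). limma 3.58.1 in R 4.3.3 fitted a mean for each of the 3 groups over all 12 arrays (9 residual degrees of freedom, moderation with a trend), two-sided, with Benjamini-Hochberg adjustment over 8695 probe sets, and was tested on simulated data. A gene with several probe sets was represented by its brightest in the lists.

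The titles number the arrays 1 to 4 in each group. Deviations from group means correlated by 0.34 to 0.59 in the 12 pairs of the same number and -0.40 to 0.16 in the 36 others, so the numbers pair the arrays, as the data and not the labels show, and a fit with the replicate block (6 residual degrees of freedom) stands beside the other.

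Members and lists were chosen with earlier results of these data known. All members were named. From each list the genes past the threshold in either fit were named, or otherwise the 3 with the smallest p, and for the 3 brightest members the 3 probe sets with the highest correlation. Alternatives were other scalings, filters, floors and fits, and leaving out arrays.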

Additional observations from a re-analysis of the deposited data

Results flagged for a closer look

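Among 34 groups of 4 arrays, those of the 12 member probe sets that were not all at one value, 4 held an array set apart from the other 3 by a gap above Dixon's 95% critical value on the log2 scale, where chance alone gives about 1 in 20 among values free of ties. HY_high array 1 was high for Nfkbia (101554_at), at 90.0. The remaining 3 lie at the bottom of the scale: OT1 array 1 for Rela (162042_i_at) at 2.24, OT1 array 3 for Rel at 3.75 and HY_high array 2 for Tnfaip3 at 1.03. In the groups of Rela and Tnfaip3 the other 3 arrays were tied at 1, so any higher value is set apart by construction, and for Rel 2 of the other 3 were at 1.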

How the results depend on the processing

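Under each of 25 alternatives 0 member probe sets passed in any comparison, and the lowest adjusted p of a member was 0.116 with the replicate block and 0.277 without it (array weights, HY_high against OT1). Of 672 member differences recomputed, 58 turned sign, in 14 of the 27 differences, and 0 of the 58 passed before or after. Leaving out the 3 arrays of a number was chosen after seeing the data. For all probe sets, the calls in HY_high against HY_low were 2, and became 30 with the replicate block, 1 with arrays scaled to one median, 0 without the filter (limma, with 431 of 12422 at an unadjusted p under 0.05), 4 with the floor at 8, 7 with log2(value + 16), 7 with array weights, and 1 to 4 when arrays were left out. In HY_low against OT1 they went from 2 to 8 with the replicate block and 4 with array weights. In HY_high against OT1 they went from 15 to 118 with the replicate block, 9 without the filter, 8 with the floor at 8, 64 with array weights, and 3 to 17 when arrays were left out. Member probe sets without overlap were 1 in HY_high against HY_low, and 0 with the floor at 8. They were 0 in HY_low against OT1, 1 with quantile normalization, 1 with arrays scaled to one median, and 0 to 2 when arrays were left out. In HY_high against OT1 they were 0, and 0 to 4 when arrays were left out, with 3 without OT1 array 1, 1 without HY_high array 1 and 4 without the 3 arrays numbered 1. The share of all probe sets without overlap was not computed for these alternatives. Groups with fewer arrays separate more easily by chance, so these counts cannot be read as a result about the members. Signals near the lowest value limit Nfkb2 and Nfkbie, and Rel and Tnfaip3 could not be measured.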
